A study of Homo sapiens with 8 samples.

Results

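The genes described are 9 factors of nonsense-mediated mRNA decay: UPF1, UPF2, UPF3A, UPF3B, SMG1, SMG5, SMG6, SMG8 and SMG9. They were chosen by name, as the UPF and SMG factors. Each was found under a RefSeq accession in all 8 libraries, so they are 9 of 19305 accessions listed. All 9 passed the filter on low counts and are among the 14565 genes tested. The study knocked down eIF2A, a translation initiation factor that can deliver initiator tRNA to the ribosome, in a pair of human cell lines, and polyadenylated RNA was sequenced. In HEK293T, a line of embryonic kidney origin, all 4 libraries came from cells given sodium arsenite, which causes oxidative stress. Of these, 2 carried a control siRNA and 2 an eIF2A siRNA. H9, a human embryonic stem cell line, had 2 libraries with a control shRNA and 2 with an eIF2A shRNA, and its labels name no arsenite. The labels give each library a set number but neither define a set nor state separate cultures, so the p-values rest on a spread between libraries that may be only technical. No knockdown without arsenite in HEK293T, and no second siRNA or shRNA sequence, is named in the labels.

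Nonsense-mediated decay removes mRNAs on which translation ends too early, often because an exon junction complex still sits downstream of the stop codon. UPF1, an RNA helicase, meets the terminating ribosome, and UPF2 links it to UPF3A or UPF3B on the junction complex. The kinase SMG1, held in check by SMG8 and SMG9, phosphorylates UPF1, and the phosphorylated helicase then recruits the endonuclease SMG6 or the adaptor SMG5. Transcripts of UPF1, UPF2, UPF3B, SMG1, SMG5 and SMG6 have themselves been reported as substrates of the pathway, which is known as feedback control. UPF3A, SMG8 and SMG9 are not among those usually named. CBP80, encoded by NCBP1, binds the cap of newly exported mRNAs and also meets UPF1.

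The members differ in base composition, and the stretches shown here are printed because the changes described for H9 broadly followed that of the whole transcript. Each is the 90 nucleotides at the middle of the coding sequence, 5′ to 3′ on the mRNA strand, with G and C in capitals, from GENCODE 29 transcripts on GRCh38. UPF2, UPF3B and SMG1 rose in H9, whereas UPF1 and SMG5 fell. The UPF2 stretch lies in exon 9 of 22 (chr10:11979057-11979146, minus strand), the UPF3B stretch in exon 7 of 11 (chrX:119841112-119841201, minus strand), the UPF1 stretch in exon 12 of 24 (chr19:18855998-18856087, plus strand) and the SMG5 stretch in exon 12 of 22 (chr1:156266067-156266156, minus strand). The SMG1 stretch joins exons 35 (chr16:18849949-18849961) and 36 (chr16:18849302-18849378) of 63 on the minus strand. The deposited counts were made on hg19, so these positions are those of the reference transcripts and not of the counted features.
UPF2: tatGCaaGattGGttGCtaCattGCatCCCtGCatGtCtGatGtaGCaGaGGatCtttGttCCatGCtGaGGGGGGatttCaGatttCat
UPF3B: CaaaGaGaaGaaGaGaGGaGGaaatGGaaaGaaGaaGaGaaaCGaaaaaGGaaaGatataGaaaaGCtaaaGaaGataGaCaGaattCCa
SMG1: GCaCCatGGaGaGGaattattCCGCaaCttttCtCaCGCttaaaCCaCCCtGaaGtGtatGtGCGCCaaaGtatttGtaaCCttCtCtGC
UPF1: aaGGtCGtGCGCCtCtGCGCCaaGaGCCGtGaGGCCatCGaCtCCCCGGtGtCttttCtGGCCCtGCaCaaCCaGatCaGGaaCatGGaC
SMG5: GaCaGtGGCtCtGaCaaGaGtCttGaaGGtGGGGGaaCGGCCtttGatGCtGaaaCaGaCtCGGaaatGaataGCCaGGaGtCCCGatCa
G and C made up 44.4% of the UPF2 stretch, 34.4% of that of UPF3B and 45.6% of that of SMG1. They made up 61.1% in UPF1 and 52.2% in SMG5. Of the middle stretches not printed, UPF3A, which rose in H9, had 42.2% and SMG9, which fell, had 52.2%. SMG6, not called in H9, had 44.4%, the same as UPF2. SMG8, also not called, had less than UPF2 and SMG1. The stretches thus did not separate the members that rose from those not called. Over whole transcripts, GC content was 41.8% in UPF3B, 41.9% in UPF2, 43.2% in SMG1, 47.3% in SMG8, 48.4% in UPF3A, 55.3% in SMG6 and in SMG9, 57.6% in SMG5 and 60.1% in UPF1. The median over 19066 genes with a transcript was 49.9%.

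The transcripts also differed in length and in the layout of their untranslated regions. SMG1 was the longest at 16115 nucleotides and UPF3B the shortest at 2378, with a median of 2685 over all genes. A long 3′ untranslated region is among the features reported to attract UPF1. It measured 4716 nucleotides in SMG1, 3604 in SMG9, 1712 in UPF1, 1649 in SMG6, 1363 in SMG5 and 1275 in UPF2. It was 900 in UPF3A, 856 in UPF3B and 245 in SMG8. Thus 6 of 9 members had 1000 nucleotides or more, as had 42.8% of all genes. An ATG upstream of the annotated start, another such feature, was present in UPF2 (4), SMG1 (1), SMG5 (1) and SMG9 (1), and in 51.9% of all genes. These features did not separate the members that rose in H9 from those that fell, since long 3′ untranslated regions and upstream ATGs occurred in both.

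Some members share sequence with other annotated genes. This bears on how far their counts can be trusted, because reads that aligned to more than 1 place were set aside. Of all 50-nucleotide words in UPF3A, 42.1% also occurred in its pseudogenes UPF3AP1, UPF3AP2 or UPF3AP3. In SMG1 the share was 18.0%, over 249 other genes that included 7 SMG1 pseudogenes. In SMG8 it was 11.7%, all in the gene model AC099850.2. Genes were compared by sequence and name and not by position, so a model lying over SMG8 itself would count here too. SMG9 had 0.11%, and UPF1, UPF2, UPF3B, SMG5 and SMG6 had none. UPF3A and UPF3B are paralogs, and the longest run identical in their transcripts was 16 nucleotides. Levels of UPF3A, SMG1 and SMG8 are therefore uncertain in absolute terms.

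Gene counts ranged from 21837052 to 32318668 per library, and the lowest count of any member in any library was 91. EIF2A fell from 17.5 and 18.3 CPM (counts per 1000000 gene counts of the library, scaled by edgeR's TMM factors) to 5.58 and 5.98 in HEK293T, and from 15.8 and 14.8 to 5.03 and 4.67 in H9. The labels of the 8 libraries thus held for the targeted gene, with log2 fold changes of -1.63 ± 0.095 (SE) and -1.66 ± 0.11. With each library's trend on transcript GC content and length removed, EIF2A was at -1.67 ± 0.093 in HEK293T and -2.29 ± 0.11 in H9. The difference between the lines, -0.02 ± 0.15 as measured, was then -0.62 ± 0.15 (edgeR adjusted p = 0.00089). Of all genes, 42.5% were called in that test without the trend. The 2 knockdowns were therefore alike only as measured. All 11 pluripotency markers with counts reached 1 CPM in every H9 group, and NANOG was at 0 in all 4 HEK293T libraries. Their summed level was 6089 to 6107 CPM in the H9 controls and 5726 to 5814 CPM in the knockdown, against 173 to 186 CPM in HEK293T. Without TMM scaling that H9 direction turned, to 5637 to 5667 CPM in the controls and 6211 to 6278 CPM in the knockdown. LIN28A alone held 2964 and 2977 CPM of the scaled sums in the H9 controls. Singly, 5 pluripotency markers were called higher in the H9 knockdown and 5 lower (edgeR adjusted p below 0.05). Over all genes 37% were higher and 34.3% lower. For example, L1TD1 rose 2.01-fold and POU5F1 fell 1.40-fold. With the trend removed, 3 were called higher and 6 lower, where 25.8% of all genes were higher and 23.5% lower. NANOG, at -0.07 and not called as measured, was then called lower at -0.73. The rise of L1TD1 was then 0.21 on the log2 scale, against 1.01 as measured. Fibroblast markers summed to 1007 to 1013 CPM in the H9 controls and 878 to 890 CPM in the knockdown, and this direction also turned without scaling (935 to 937 and 952 to 961 CPM). Of these, THY1, which embryonic stem cells also express, went from 788 and 794 to 592 and 594 CPM, COL1A1 went from 88.7 and 87.7 to 118 and 124 CPM, and DCN and LUM were at or near 0. Markers of germ layers and trophoblast summed to 39.0 to 41.1 CPM in the H9 controls and 26.0 to 26.8 CPM in the knockdown, lower without scaling too. KRT7 alone went from a mean of 25.8 to 16.3 CPM. Of the 9 tested, 3 were called lower and 1 higher, GATA4, with means of 0.02 and 0.22 CPM. With the trend removed 1 was called lower and 1 higher, beside 23.5% and 25.8% of all genes, and KRT7, at -0.12, was not called. Reads assigned to no counted feature differed between groups. They made up 18.8 and 18.4% of reads in the H9 controls and 20.8 and 20.6% in the H9 knockdown, and 15.6 and 17.7% against 15.0 and 15.0% in HEK293T.

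The first comparison asked what the eIF2A siRNA did to these transcripts in arsenite-treated HEK293T cells. The 9 transcripts changed little: SMG8, a regulatory subunit of the SMG1 kinase complex, rose 1.24-fold, SMG5 fell slightly, and the other 7 were not called. Thus 2 of 9 were called at an adjusted p below 0.05 (edgeR quasi-likelihood test, Benjamini-Hochberg), 1 higher and 1 lower, where 28.7% of all genes tested were called (14.1% higher and 14.7% lower). The members' share was near that background. In bulk RNA, fewer cells of a type and less RNA per cell cannot be told apart. The median log2 fold change of the members was -0.07, against -0.0032 over all genes.

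Among the surveillance proteins, UPF1 had 310.0 and 306 CPM under the control siRNA, against 292 and 297 CPM with the eIF2A siRNA. These groups did not overlap, as in 58.8% of all genes, but the difference of -0.07 ± 0.031 on the log2 scale was not called (edgeR adjusted p = 0.119). UPF2, the bridge to the junction complex, had 4.75 and 4.68 CPM against 4.69 and 5.08 CPM, with overlapping groups and a difference of 0.05 ± 0.13. UPF3A had 8.45 and 7.92 CPM against 7.48 and 7.67 CPM, a difference of -0.11 ± 0.10 that was not called. Its paralog UPF3B had 8.54 and 9.11 CPM against 7.75 and 6.95 CPM. The UPF3B difference of -0.27 ± 0.11 lay at the threshold (edgeR adjusted p = 0.0543) and was called once the trend on GC content and length was removed, at -0.33, a correction under which 27.4% of all genes were called.

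In the SMG1 complex, SMG1 itself, the UPF1 kinase, had 5.75 and 6.22 CPM in the controls and 6.29 and 4.91 CPM in the knockdown. The groups overlapped, and the log2 difference of -0.10 ± 0.14 was smaller than its standard error. SMG8 rose from 66.2 and 65.5 CPM to 78.8 and 84.4 CPM, a log2 fold change of 0.31 ± 0.046 (edgeR adjusted p = 2.3e-06) that was called in every alternative tried, at 0.26 to 0.36 when any 1 library was left out. SMG9, its partner, had 73.2 and 75.5 CPM in the controls and 75.5 and 74.2 CPM in the knockdown, and its difference of 0.01 ± 0.045 was not called. The ratio of SMG8 to SMG9 per length was 1.53 and 1.46 in the controls and 1.76 and 1.92 in the knockdown.

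Downstream of phosphorylated UPF1, SMG5 fell from 621 and 606 CPM to 557 and 583 CPM. The change of -0.11 ± 0.031 (edgeR adjusted p = 0.00793) was small. It was no longer called in a fit of the 4 HEK293T libraries alone (-0.10), without the library of eIF2A siRNA set 1 (-0.07) or after removal of the GC and length trend (-0.06). SMG6, the endonuclease, had 40.9 and 42.8 CPM against 40.1 and 41.9 CPM, with overlapping groups and a difference of -0.03 ± 0.051.

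**Figure D1:**
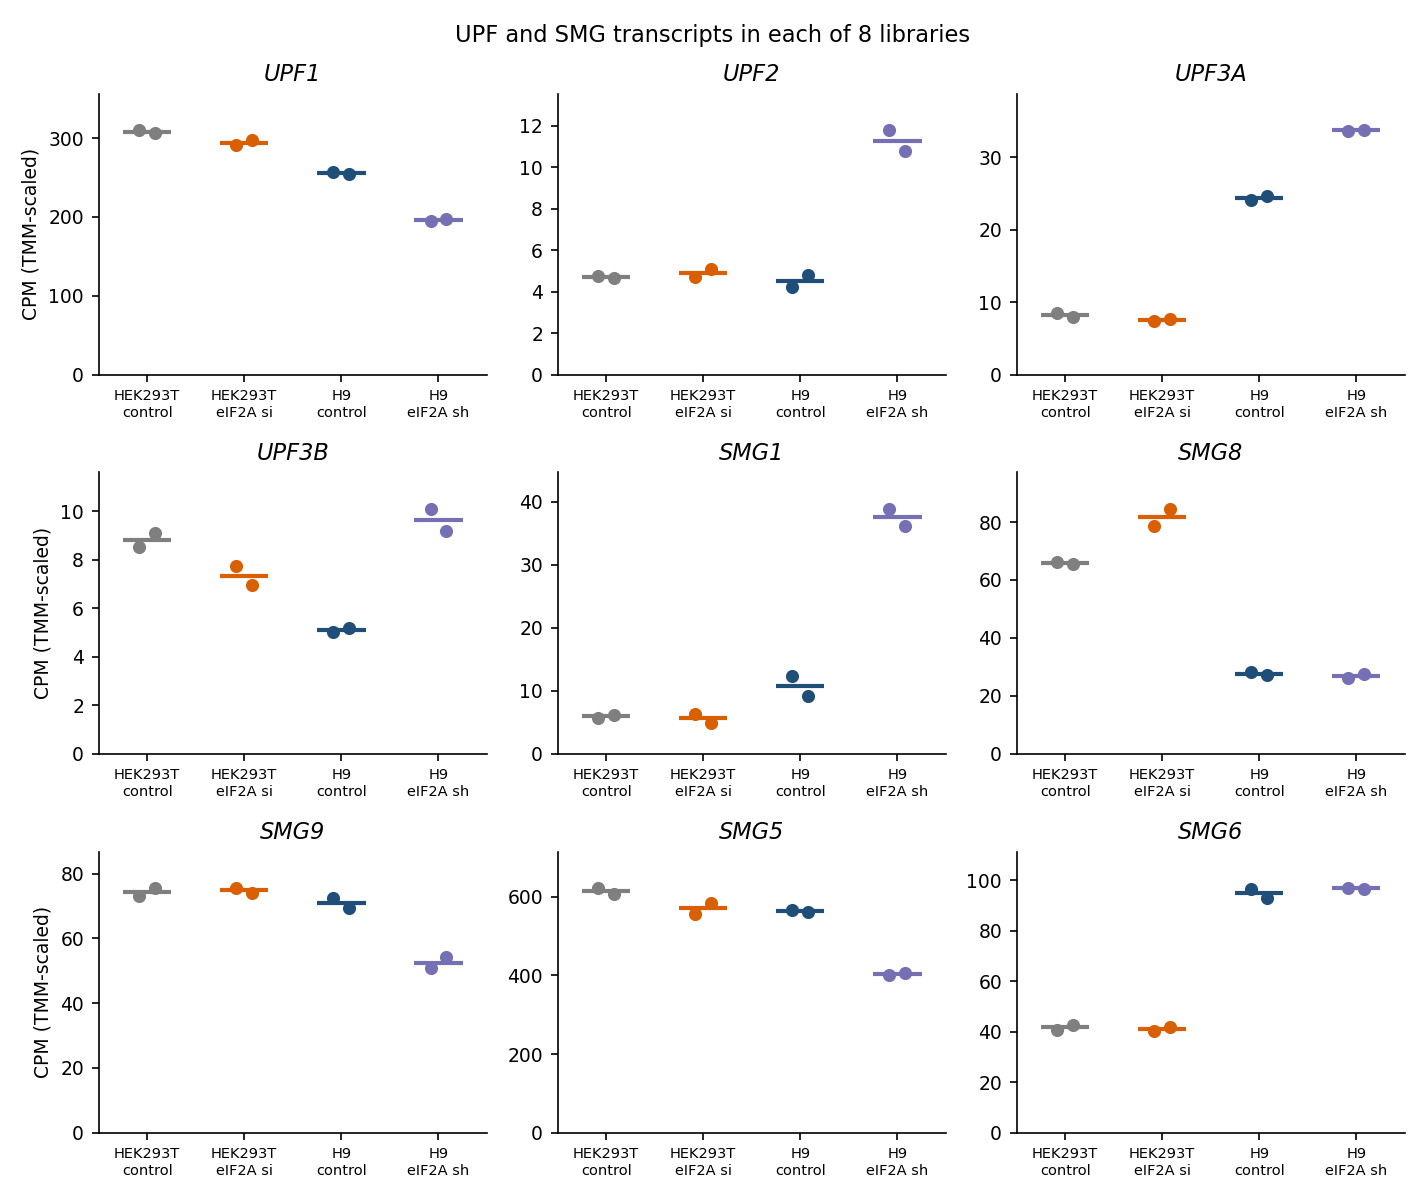
TMM-scaled CPM (y axis, from 0, own scale per panel) of each transcript in the 8 libraries, with points for libraries and bars for group means of 2. In HEK293T only SMG8 stands clearly higher with the eIF2A siRNA (78.8 and 84.4 against 66.2 and 65.5 CPM), whereas in H9 SMG1 goes from 12.3 and 9.23 to 38.8 and 36.2 CPM and SMG5 from 567 and 562 to 401 and 406 CPM.

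The second comparison asked the same of the eIF2A shRNA in H9. Here 4 transcripts rose (SMG1, UPF2, UPF3B and UPF3A) and 3 fell (SMG5, SMG9 and UPF1), while SMG6 and SMG8 were not called. The largest change was that of SMG1, 3.47-fold, and the falls reached 1.40-fold. The 7 of 9 called stood beside 71.3% of all genes tested (37% higher and 34.3% lower), so the members' share was near the background. Their median log2 fold change was 0.03, against 0.02 over all genes.

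Of the surveillance proteins, UPF1 fell from 257 and 254 CPM to 195 and 197 CPM, a log2 fold change of -0.38 ± 0.033 (edgeR adjusted p = 2e-12). UPF2 rose from 4.24 and 4.79 CPM to 11.8 and 10.8 CPM, by 1.32 ± 0.12 (edgeR adjusted p = 1.3e-11). The helicase and its bridging partner thus moved in opposite directions, and the ratio of UPF1 to UPF2 per length went from 61.2 and 53.7 in the controls to 16.7 and 18.5 in the knockdown. In HEK293T that ratio was 66.0 and 66.1 in the controls and 62.9 and 59.1 in the knockdown. The ratios of UPF1 to UPF2 are as measured. Once the trend on GC content and length was taken out, UPF1 fell by 0.22 and UPF2 rose by 0.46 in H9, a smaller divergence.

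Both UPF3 paralogs rose. UPF3A went from 24.1 and 24.6 CPM to 33.6 and 33.7 CPM, by 0.47 ± 0.067 (edgeR adjusted p = 1.3e-07). UPF3B, the paralog known as the stronger activator of decay, went from 5.04 and 5.18 CPM to 10.1 and 9.20 CPM, by 0.92 ± 0.12 (edgeR adjusted p = 4.2e-08). The ratio of UPF3A to UPF3B per length was 4.77 and 4.73 in the controls and 3.32 and 3.65 in the knockdown, so the 2 groups did not overlap. These ratios are as measured, and once the trend on GC content and length was taken out the rise of UPF3A (0.38) was no smaller than that of UPF3B (0.33).

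The kinase complex split. SMG1 rose from 12.3 and 9.23 CPM to 38.8 and 36.2 CPM, by 1.80 ± 0.094 (edgeR adjusted p = 2.4e-17), and by 1.61 to 2.02 with any 1 library left out. Its inhibitory subunit SMG9 fell from 72.4 and 69.3 CPM to 50.9 and 54.2 CPM, a log2 fold change of -0.43 ± 0.049 (edgeR adjusted p = 1.3e-09). The other subunit, SMG8, had 28.2 and 27.2 CPM against 26.3 and 27.7 CPM, with overlapping groups and a difference of -0.04 ± 0.065. The kinase and its 2 subunits thus showed a rise, a fall and no call.

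SMG5, an adaptor of phosphorylated UPF1, fell from 567 and 562 CPM to 401 and 406 CPM. Its log2 fold change was -0.48 ± 0.032 (edgeR adjusted p = 1.8e-15). SMG6, the endonuclease of the other branch, had 96.6 and 93.0 CPM in the controls and 96.8 and 96.7 CPM in the knockdown. These SMG6 groups did not overlap, as in 84.9% of all genes, but the difference of 0.03 ± 0.044 was not called. The ratio of SMG5 to SMG6 per length, as measured, was 7.67 and 7.90 in the controls and 5.42 and 5.50 in the knockdown. Without the trend on GC content and length, SMG5 fell by 0.32 and SMG6 was at 0.02, not called.

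Of the 6 members whose transcripts are reported decay substrates, 3 rose in H9 (UPF2, UPF3B and SMG1), 2 fell (UPF1 and SMG5) and SMG6 was not called. Of the 3 others, UPF3A rose, SMG9 fell and SMG8 was not called. In HEK293T the 6 gave 0 higher and 1 lower, SMG5, and the 3 others gave SMG8 as higher. Over all genes tested, 37% were called higher and 34.3% lower in H9, and 14.1% and 14.7% in HEK293T. In H9 the reported substrates thus moved in both directions, as genes did in general.

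**Figure D2:**
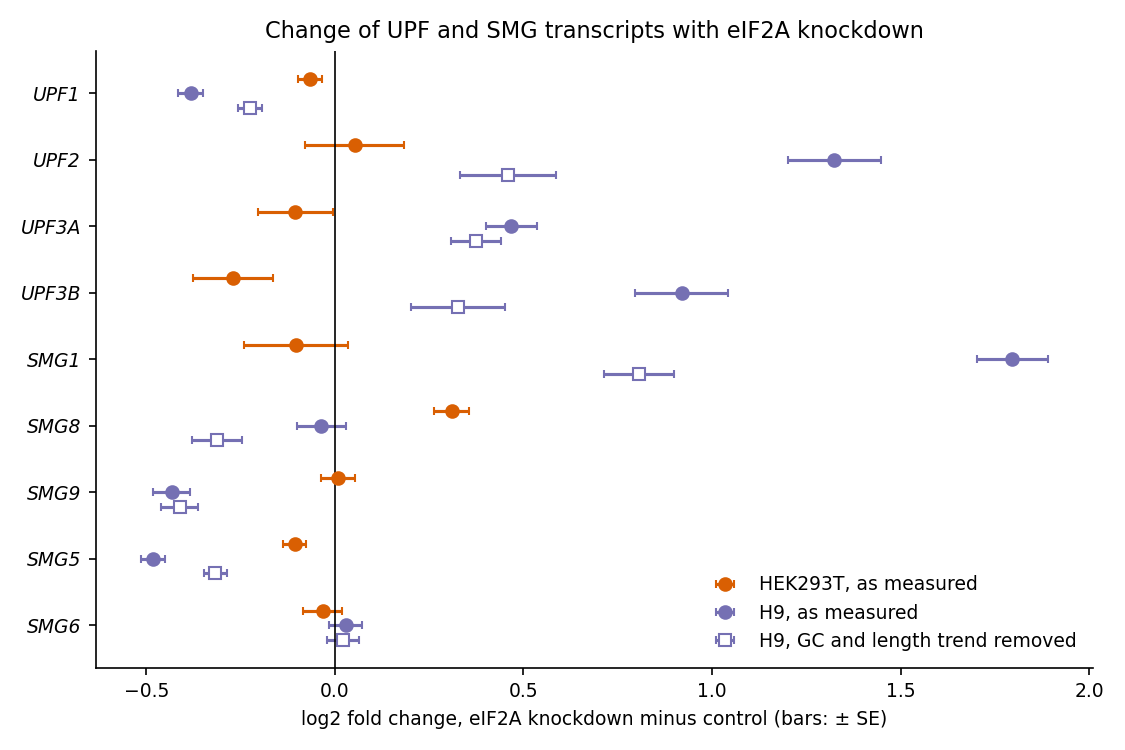
Log2 fold change of each transcript with eIF2A knockdown (x axis, bars ± SE from edgeR), for HEK293T, for H9 as measured and for H9 with the trend on transcript GC content and length removed. In H9, SMG1, UPF2 and UPF3B move from 1.80, 1.32 and 0.92 as measured to 0.81, 0.46 and 0.33, and SMG8 from -0.04 to -0.31.

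In H9 the change of a gene went with the GC content of its transcript across the whole data set. The median log2 fold change was 0.99 over 1771 genes under 40% GC, 0.75 from 40 to 45%, 0.30 from 45 to 50%, -0.13 from 50 to 55%, -0.32 from 55 to 60% and -0.40 over 2680 genes at 60% or more. The members broadly followed this course. The 3 with 41.8 to 43.2% GC had the 3 largest rises, UPF3A at 48.4% had the fourth, and the 3 that fell had 55.3 to 60.1%. SMG8 at 47.3% and SMG6 at 55.3% were not called. SMG1 (1.80) and UPF2 (1.32) lay above the upper quartile of genes with 40 to 45% GC, which was 1.20. SMG6 (0.03) lay above that of genes with 55 to 60% GC, which was -0.08. Whether library preparation, RNA quality or the knockdown itself gave this course was not tested. In H9 the share of reads without a feature and the summed marker lists differed between the groups, as given for the libraries, and their part in the results was not tested.

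With the trend on GC content and length removed from each library by smooth curves, all 7 called members kept their direction and call. SMG1 then rose by 0.81 ± 0.093, UPF2 by 0.46 ± 0.13, UPF3B by 0.33 ± 0.12 and UPF3A by 0.38 ± 0.066. For SMG1, UPF2 and UPF3B these rises were more than 2-fold smaller on the log2 scale than those measured (1.80, 1.32 and 0.92). UPF1 fell by 0.22 ± 0.032, SMG5 by 0.32 ± 0.030 and SMG9 by 0.41 ± 0.049. SMG8, not called as measured, was then called lower at -0.31 ± 0.066. That gave 4 higher and 4 lower of 9, beside 49.3% of all genes called under that correction (25.8% higher and 23.5% lower). The order of the rises stayed with SMG1 first and UPF2 second, whereas UPF3A came before UPF3B.

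The 2 members nearest to no change depended on the scaling of the libraries. DESeq2's size factors moved the median over all genes from 0.02 to -0.13 and upper-quartile scaling moved it to 0.09. SMG6 was 0.03 under TMM, was called lower at -0.13 with the size factors and was called higher at 0.10 with the upper quartile. SMG8 was called lower at -0.20 with the size factors. The other 7 kept direction and call under both.

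**Figure D3:**
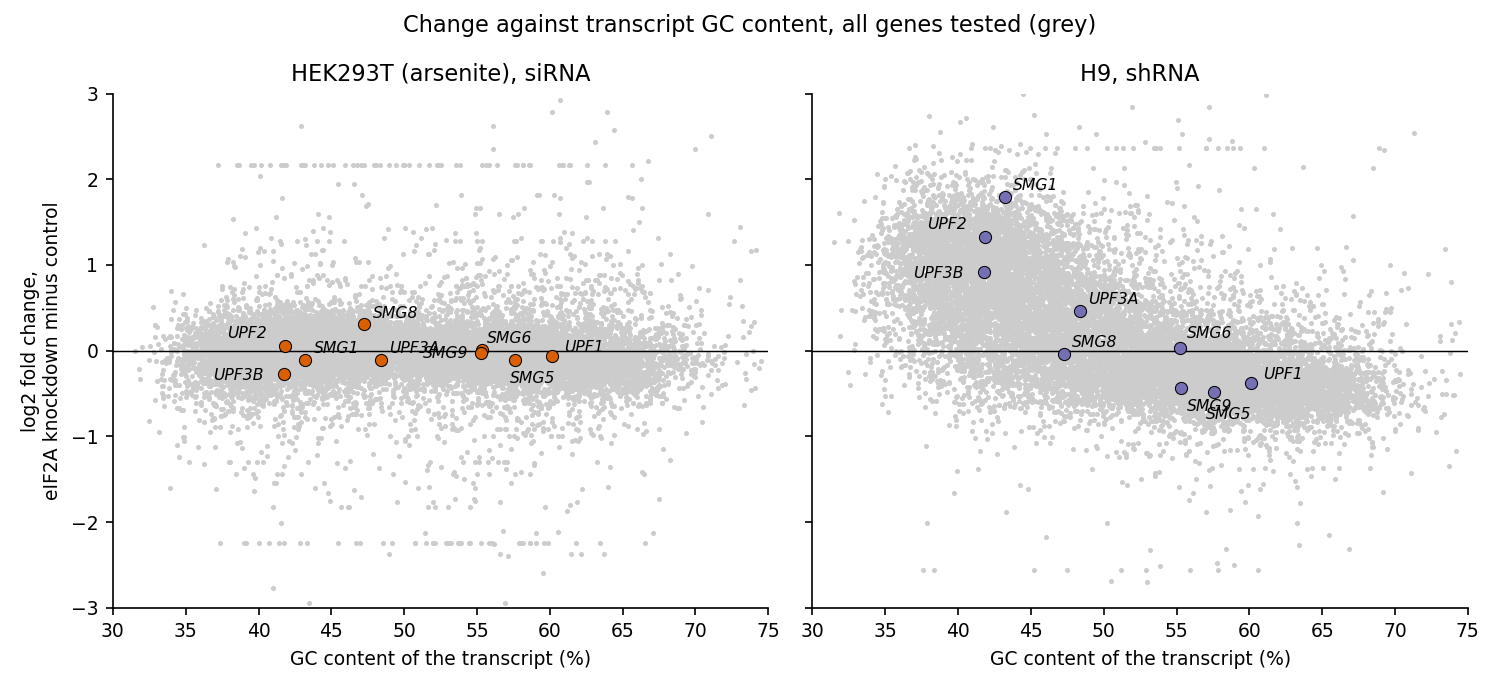
Log2 fold change with eIF2A knockdown (y axis) against GC content of the transcript (x axis, %), for all genes tested in grey and the 9 members in colour; 185 genes in the HEK293T panel and 149 in the H9 panel lie outside the axes or have no GC value. In H9 the members run from SMG1 at 1.80 and 43.2% GC to UPF1 at -0.38 and 60.1%, broadly along the cloud of all genes. In HEK293T they lie between -0.27 and 0.31.

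The difference between the 2 knockdown contrasts was tested as an interaction, H9 minus HEK293T. It was called for 8 of 9 members, 4 higher and 4 lower, where 58.1% of all genes were called (31.1% higher and 27% lower). SMG1 differed by 1.90 ± 0.17, UPF2 by 1.27 ± 0.18, UPF3B by 1.19 ± 0.16 and UPF3A by 0.57 ± 0.12. On the other side, SMG9 differed by -0.44 ± 0.066, SMG5 by -0.38 ± 0.044, SMG8 by -0.35 ± 0.080 and UPF1 by -0.32 ± 0.046. SMG6 differed by 0.06 ± 0.067 and was not called. UPF3B was at -0.27 in HEK293T, not called, and at 0.92 in H9, whereas SMG5 was lower in both but more so in H9. After removal of the trend, which left 42.5% of all genes called, the UPF2 difference of 0.42 was no longer called, and those of SMG1 and UPF3B were 0.86 and 0.65. Line, arsenite and the silencing reagent changed together and cannot be told apart here.

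Levels in the control libraries of each line were then compared. Per kilobase of transcript, the order in HEK293T with arsenite was SMG5 at 135 CPM, UPF1 at 58.0, SMG8 at 20.2, SMG9 at 13.5, SMG6 at 7.02, UPF3B at 3.71, UPF3A at 3.43, UPF2 at 0.88 and SMG1 at 0.37 CPM per kb. In H9 it was SMG5 at 124, UPF1 at 48.1, SMG6 at 15.9, SMG9 at 12.9, UPF3A at 10.2, SMG8 at 8.48, UPF3B at 2.15, UPF2 at 0.84 and SMG1 at 0.67 CPM per kb. SMG5 and UPF1 therefore led and UPF2 and SMG1 closed the order in both, while SMG6, SMG8 and the UPF3 paralogs changed places. No neighbours in either order had overlapping libraries, but the places of UPF3A, SMG1 and SMG8 are uncertain, since they share sequence with other annotated genes. These levels were not corrected for GC content. It was 57.6% in SMG5 and 60.1% in UPF1, at the top, and 41.9% in UPF2 and 43.2% in SMG1, at the bottom. What part base composition had in the order was not tested. UPF3A and UPF3B overlapped in the HEK293T knockdown, where their means were 3.17 and 3.09 CPM per kb. In the H9 knockdown SMG1 came above UPF2, at 2.33 against 2.10 CPM per kb.

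**Figure D4:**
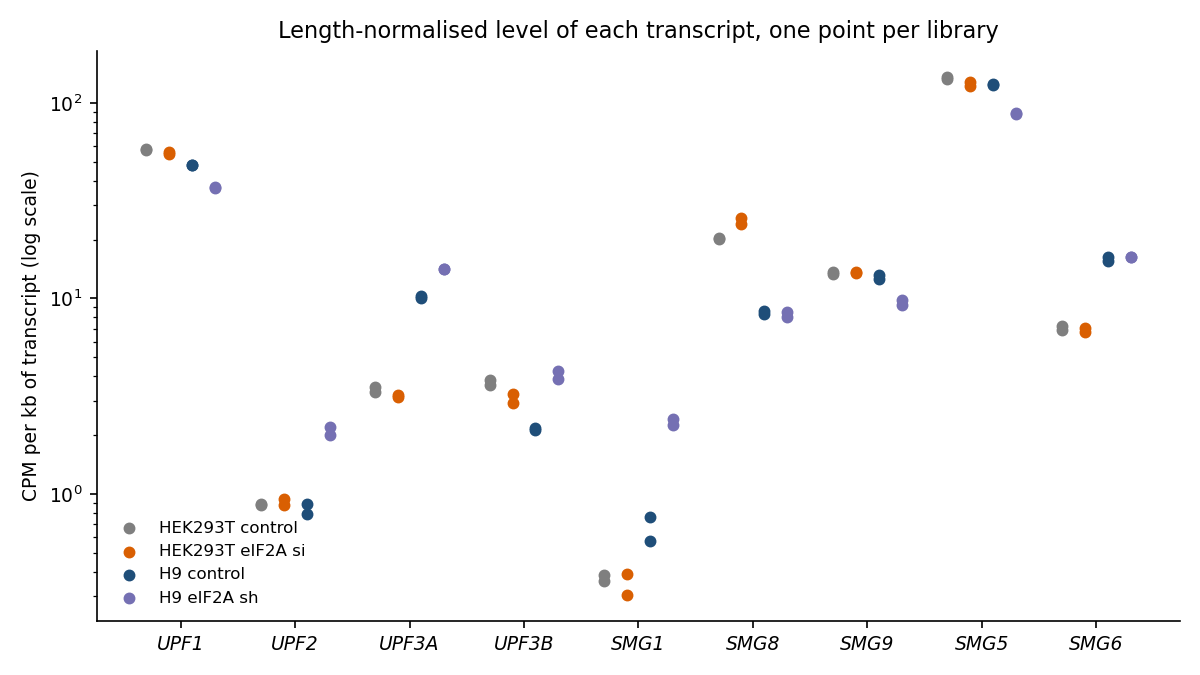
Level of each transcript in CPM per kilobase (y axis, log scale) in every library, coloured by group and not corrected for GC content. SMG5 (135 in HEK293T controls and 124 in H9 controls) and UPF1 (58.0 and 48.1) are highest, and UPF2 (0.88 and 0.84) and SMG1 (0.37 and 0.67) lowest.

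Between the controls, 7 of 9 members differed, 3 higher and 4 lower in H9, beside 83.5% of all genes tested (42.3% higher and 41.2% lower). UPF3A was higher in H9 by 1.58 ± 0.084 on the log2 scale, SMG6 by 1.18 ± 0.048 and SMG1 by 0.84 ± 0.13. Lower in H9 were SMG8 (-1.25 ± 0.056), UPF3B (-0.79 ± 0.12), UPF1 (-0.27 ± 0.032) and SMG5 (-0.12 ± 0.031). SMG9 (-0.07 ± 0.047) and UPF2 (-0.06 ± 0.14) were not called. The UPF3 paralogs thus stood in opposite relations to the line: UPF3A to UPF3B per length was 0.99 and 0.87 in HEK293T controls and 4.77 and 4.73 in H9 controls. Removing the GC and length trend, after which 83.8% of all genes were called, made the differences of UPF1 and SMG5 larger, at -0.92 and -0.62. That of UPF3B was smaller, at -0.33, as was that of SMG6 at 0.78, and SMG9 was called lower at -0.45. Line, arsenite, reagent and any batch cannot be told apart in this comparison.

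Other genes of the pathway were taken from lists by function, chosen with earlier results of these data known, and their counts are descriptions on the log2 fold change scale. The counts stand beside the 28.7% of all genes called in HEK293T (14.1% higher and 14.7% lower) and the 71.3% called in H9 (37% higher and 34.3% lower), or 27.4% and 49.3% with the trend removed. The exon junction complex gave 5 higher and 0 lower of 7 in HEK293T, where its median was 0.18 against -0.0032 over all genes. These included the core proteins RBM8A (0.34 ± 0.039), EIF4A3 (0.20 ± 0.032) and CASC3 (0.16 ± 0.033). Without the trend 4 of the 7 rose in HEK293T and 0 fell. In H9, 0 of the 7 rose and 4 fell, with a median of -0.14 against 0.02, among them RNPS1 (-0.49 ± 0.031), PYM1 (-0.43 ± 0.045), which disassembles the complex, and EIF4A3 (-0.14 ± 0.034). All 7 differed between the lines in the interaction test, by -0.23 to -0.54 with the trend left in. Of all genes, 58.1% were called in that test, 27% lower. Without the trend, 5 of the 7 differed, beside 42.5% of all genes. In H9 without the trend 0 rose and 5 fell, PYM1 and EIF4A3 no longer among them.

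Of 9 other decay and termination factors, 2 rose and 1 fell in HEK293T. NCBP1, the CBP80 gene, rose by 0.21 ± 0.068, the release factor gene ETF1 by 0.12 ± 0.046, and the helicase MOV10 fell by 0.20 ± 0.039. ETF1 was not called there without the trend, at 0.06. In H9, 7 of the 9 rose and 1 fell, with a median of 0.56. ETF1 rose by 0.98 ± 0.046, NBAS, which takes part in decay at the endoplasmic reticulum, by 1.53 ± 0.097, and NCBP1 by 0.92 ± 0.062. Without the trend 4 of the 9 rose and 0 fell in H9, and NCBP1, at 0.05, was not called.

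Kinases related to SMG1 and their assembly factors, 10 genes, gave 0 higher and 3 lower in HEK293T. TELO2, an assembly factor, fell by 0.44 ± 0.038, the DNA repair kinase PRKDC by 0.50 ± 0.051 and the assembly ATPase RUVBL2 by 0.24 ± 0.036. Without the trend 1 was higher and 3 lower. In H9, 6 rose and 4 fell. PRKDC rose by 1.68 ± 0.044 and TRRAP, a pseudokinase of the same family, by 0.50 ± 0.039, as SMG1 did, while RUVBL2 fell by 0.51 ± 0.038. With the trend removed 4 rose and 1 fell, PRKDC at 0.86 and TRRAP at 0.22, and RUVBL2 was at 0.04 and not called.

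General mRNA decay enzymes, 21 genes, gave 5 higher and 5 lower in HEK293T. The decapping activators PATL1 (0.44 ± 0.054) and EDC3 (0.24 ± 0.038) and the decay factor LSM1 (0.39 ± 0.077) were among the 5 that rose. Without the trend 5 rose and 3 fell. In H9, 14 rose and 3 fell, with a median of 0.69. They included the deadenylase scaffold CNOT1 (1.35 ± 0.041), the helicase DDX6 (1.42 ± 0.057) and the deadenylase CNOT7 (0.74 ± 0.054). With the trend removed, 9 rose and 6 fell with a median of 0.01, and CNOT7 was called lower at -0.24.

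Transcripts reported as decay substrates outside the pathway, 11 genes, gave 2 higher and 0 lower in HEK293T, CDKN1A (0.42 ± 0.066) and GADD45A (0.20 ± 0.074), both linked to growth arrest. Without the trend GADD45A, at 0.16, was not called and ATF3, a stress transcription factor gene named after its values were seen, was called lower at -0.14. In H9, 4 rose and 5 fell. ATF4, also a stress transcription factor gene, fell by 0.63 ± 0.031, CDKN1A rose by 1.34 ± 0.072 and the cystine transporter SLC7A11 rose by 1.27 ± 0.12. Without the trend 5 rose and 3 fell. ATF4 was then at -0.22, CDKN1A at 1.74, and SLC7A11, at 0.22, was not called.

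**Figure D5:**
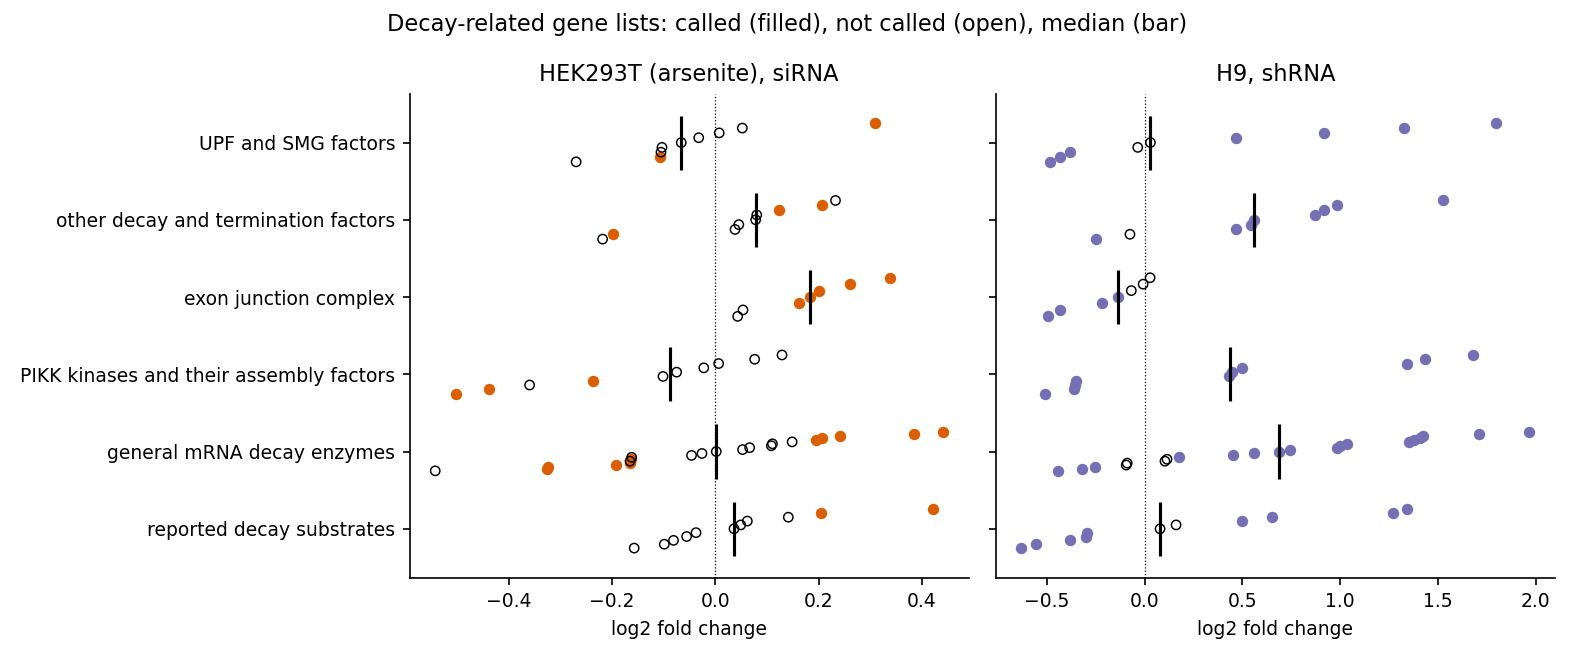
Log2 fold change with eIF2A knockdown (x axis, own scale per line) of every gene tested in the 9 UPF and SMG factors and 5 lists, filled where called and open where not, with a bar at each list's median. The exon junction complex has its median at 0.18 in HEK293T and -0.14 in H9, and the decay enzymes at 0.00 and 0.69.

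The genes whose course over the 8 libraries was most like that of UPF1 or SMG1 were sought among 10037 genes with at least 5 CPM on average. Likeness was the root mean square difference of log2 CPM, each gene centred on its own mean. Nearest to UPF1 were SLC25A23 (0.029), GOT1 (0.029) and NCDN (0.034), with transcript GC contents of 58.5, 52.8 and 62.3%. Nearest to SMG1 were ANKIB1 (0.094), PEAK1 (0.11) and PBRM1 (0.14), with 41.4, 44.9 and 40.4% GC and lengths of 6081, 11512 and 7523 nucleotides. These profiles share library, depth and base composition and are given as a description.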

How the data were processed

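Polyadenylated RNA of 8 libraries, 2 in each of 4 groups, was analysed from gene counts. TRIzol extraction and the TruSeq Stranded mRNA kit were used, per the labels' protocols. Per the submitters' processing notes, cutadapt and STAR 2.5.2b were used with hg19. The authors deposited raw counts for RefSeq accessions. How reads were counted, with which strand setting and annotation, is not given in the sources used, and an overlapping antisense gene may share counts.

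Symbols came from RefSeq for 18884 accessions and GENCODE for 227, and 194 had none. The 5 special counters were left out. edgeR 4.0.16 in R 4.3.3 (filterByExpr, TMM, robust quasi-likelihood F test, two-sided) fitted 4 group means to all 8 libraries with 4 residual degrees of freedom, and p-values were adjusted (Benjamini-Hochberg) over 14565 genes. The script was tested on simulated counts. GC and length trends were removed by additive natural splines (5 degrees of freedom each) per library, given as offsets, with TMM recomputed, for 14489 genes. Alternatives were DESeq2 1.42.0, other scalings and filters, a replicate block and leaving out each library. Members and lists were chosen with earlier results of these data known. All members are named, and up to 3 called genes of each list by smallest p.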

Additional observations from a re-analysis of the deposited data

Results flagged for a closer look

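For 8 members the change with eIF2A knockdown differed between H9 and HEK293T in the test of the difference itself (edgeR interaction contrast, H9 minus HEK293T, log2 scale). SMG1 (1.90), UPF2 (1.27), UPF3B (1.19) and UPF3A (0.57) were higher in H9 relative to HEK293T. SMG9 (-0.44), SMG5 (-0.38), SMG8 (-0.35) and UPF1 (-0.32) were lower. Among all genes 58.1% differed in this way.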

How the results depend on the processing

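The number of members called was 2 in HEK293T, 7 in H9, 7 between the controls and 8 for the difference. In HEK293T it was 1 in a fit of the 4 libraries compared and ranged from 1 to 2 with any 1 library left out, where SMG5 lost its call without eIF2A siRNA set 1. It stayed at 7, 7 and 8 for the others with any 1 library left out. Of 639 member values under alternatives, 590 kept direction and call.

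Signs turned 25 times, in values not called in the main test. In HEK293T with the GC and length trend removed, alone, with a replicate block or with the TMM factors of the uncorrected counts (chosen after seeing the data), UPF1 was 0.0232, 0.0233 and 0.0179 and SMG6 0.0380, 0.0407 and 0.0323. SMG9 was -0.0040 with upper-quartile scaling. With any 1 library left out, UPF2 ranged from -0.0027 to 0.1095, SMG1 from -0.2937 to 0.0664, SMG6 from -0.0615 to 0.0058 and SMG9 from -0.0103 to 0.0330. In H9, SMG6 was -0.13 with DESeq2's size factors and with DESeq2, and SMG8 0.0351 with the upper quartile and 0.0147 with a minimum of 5 CPM in 2 libraries. Between the controls, UPF2 was 0.16, 0.21 and 0.17 in the 3 fits without the trend and ranged from -0.1487 to 0.0352 with any 1 library left out. For the difference, SMG6 was -0.10 with the size factors and with DESeq2, and -0.0163 and -0.0189 without the trend, alone and with the block. The cause was not tested.

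Same-numbered sets did not deviate together (r = -0.087 in HEK293T and -0.024 in H9 over 9428 genes). What a set shares beyond its number is not given in the labels. With a replicate block the members called were 2, 7, 7 and 8, and over all genes 1899 higher and 1948 lower in HEK293T. With the trend removed and the block, UPF3B between the controls (-0.31) lost its call. Among called genes in H9, 51.9% were higher with TMM, 42.6% with the size factors, 41.9% with DESeq2 and 73.1% with the trend removed but the old TMM factors. For the difference the share was 53.5% with TMM and 42.5% with the size factors. List counts moved by over 1.5 times in 10 of 180 cases. With DESeq2 in HEK293T, 1 of the other decay factors, 3 of the exon junction genes and 1 substrate were called.

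With 2 libraries a group, each spread rests on few samples, and where 1 is left out the lone library left in a group is assumed to vary like the other groups. Spread between the 2 libraries of a group, as chi-square per degree of freedom, was 4.91 in the HEK293T controls. It was 1.80 in the HEK293T knockdown, 1.51 in the H9 controls and 1.35 in the H9 knockdown, whereas the fit shares each gene's spread over the groups. Reads shared with pseudogenes limit UPF3A and SMG1.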
